A study of Mus musculus with 32 samples.

Results

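The Taf4b-deficient embryos collected at E16.5 (embryonic day by the copulatory plug) had heterozygous or wildtype littermates in 4 litters, called E, H, I and J here. These litters were chosen because each holds deficient and other embryos, and each deficient library is compared with controls of its own litter. They give 14 of the 24 libraries of that age and of the 32 libraries in the series. The 8 deficient libraries (DEF) stand against 4 heterozygous (HET) and 2 wildtype (WT) controls, which form 1 control group. Litter E has DEF 3 and DEF 4 with HET 3 and HET 4, litter H has DEF 2 with HET 2 and WT 2, litter I has DEF 1 with HET 1, and litter J has DEF 5 to DEF 8 with WT 1.

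RNA was sequenced from male prospermatogonia, labelled as C57BL/6, that were sorted as live cells positive for GFP. The parents were homozygous for an Oct4-EGFP transgene and heterozygous for the Taf4b-deficiency mutation, so the reporter is shared by deficient and control embryos. The genotype of the controls and the litter cannot be told apart in litters E, I and J, whose controls have 1 genotype each. The labels do not say whether a library holds the cells of 1 embryo, so the p-values measure the spread between these libraries.

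TAF4B is a subunit of TFIID, the general transcription factor that binds core promoters and positions RNA polymerase II, and it is enriched in germ cells. Mutation of Taf4b in mice leads to early loss of germ cells in the adult testis. Prospermatogonia are the fetal male germ cells that leave mitosis, stay quiescent until after birth, lose their pluripotency programme and remethylate their genome before they give rise to spermatogonial stem cells.

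Total counts per library were 17661182 to 22235854 in the deficient group, 20522385 to 24206658 in the heterozygous group and 20867961 to 24866888 in the wildtype group. Expression is given as CPM, counts scaled to a common library size with the trimmed mean of M-values (TMM) and not corrected for gene length. Germ cell markers were detected in every library, at unlike levels. The RNA helicase Ddx4 was at 744 to 1089 CPM and the piRNA factor Mael at 1251 to 1847 CPM. Dazl was at 501 to 1614 CPM, Piwil4 at 181 to 606 CPM, Dnmt3l at 53.6 to 437 CPM and Pou5f1 at 26.9 to 78.4 CPM. Dppa3 ranged more widely, from 70.9 to 1570 CPM, as did the male germ cell regulator Nanos2, from 3.50 to 61.4 CPM. Markers of other cell types were present too. Those of Sertoli cells summed to 186 to 534 CPM, those of Leydig cells to 162 to 3281 CPM and those of red blood cells to 48.4 to 4659 CPM. In sorted bulk RNA, fewer cells of a type and less RNA per cell cannot be told apart.

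The targeted gene was lower in every deficient library than in every control of its litter. Taf4b was at 242 CPM in WT 1 and at 242 CPM in WT 2. Among the heterozygous libraries it was at 143, 130, 151 and 134 CPM in HET 1 to HET 4. DEF 1 to DEF 7 had 64.7, 55.5, 61.9, 68.2, 62.1, 49.8 and 50.4 CPM, and the library labelled DEF 8 had 133 CPM. The deficient libraries therefore kept 45.5% of the control level in litter E, 29.9% in litter H, 45.3% in litter I and 30.4% in litter J. The within-litter difference was -1.43 on the log2(CPM + 1) scale, and an exact two-sided permutation test within litters gave p = 0.00556, the smallest that its 180 arrangements allow. Without the library labelled DEF 8 the difference was -1.51. That library was at the level of the heterozygous ones, although its own littermate control is wildtype.

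There are 2 features of the libraries that move with the comparison and were seen only after the data were examined. The first is the library labelled DEF 8, which stood apart from the other deficient libraries in Taf4b, in histone RNA and in mitochondrial RNA. Genes of the histone clusters took 0.0114% of its counts, against 0.0228% to 0.0357% in the other deficient libraries and 0.00701% to 0.0176% in the controls. The second is the share of counts in Lars2, which encodes the mitochondrial leucyl-tRNA synthetase. Lars2 took 1.76% to 2.47% of the counts in 10 libraries, namely all 8 deficient libraries, WT 1 and HET 4, and 0.228% to 0.373% in HET 1, HET 2, HET 3 and WT 2, with no library between. All 5 libraries of litter J were on the high side. In litters H and I every control was on the low side, and litter E had a control on each side. Over all 24 libraries of this age, 11 were low (4 wildtype and 7 heterozygous) and 13 high (3 wildtype, 2 heterozygous and 8 deficient). The part of this split in the results was not tested beyond the fits given beside them.

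**Figure D1:**
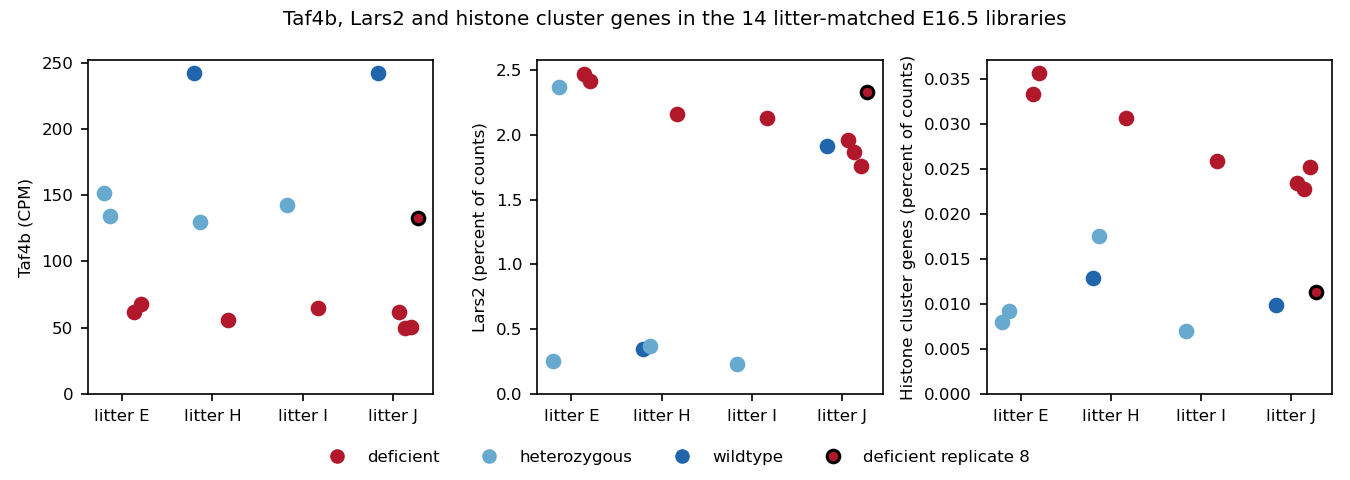
Each point is a library, grouped by litter with controls to the left of the deficient libraries; the y axes give Taf4b in CPM, the share of counts in Lars2 and the share of counts in histone cluster genes, both in percent. Taf4b was lower in each deficient library than in its littermate controls, the library labelled DEF 8 (ringed) was at 133 CPM, and Lars2 was either at most 0.373% or at least 1.76% of the counts.

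Inside the litters, 427 genes differed between deficient and control libraries, 266 higher and 161 lower in the deficient ones. They are 1.55% of the 27531 genes tested (0.966% higher and 0.585% lower) by edgeR's quasi-likelihood test with litter as a block, at a Benjamini-Hochberg adjusted p under 0.05. A log2 change of 1 or more was reached by 144 of them, 0.523% of the genes tested. At an unadjusted p under 0.05, 21.9% of the genes passed. The number of calls depended on single libraries. It went from 427 to 2823 (10.3% of the genes tested) without the library labelled DEF 8, and all 427 stayed called. It went to 6 without DEF 2 and to 15 without HET 3. Among the 8 libraries with a high Lars2 share, in litters E and J, 1 gene was called (0.00363%). These are DEF 3 to DEF 8, with HET 4 and WT 1 as the only controls. The part of the smaller number of libraries in that fall was not tested. With the Lars2 share as a covariate, 3 genes were called (0.0109%). In both fits all 427 genes kept their sign, and 0 and 1 of them remained called. Of the 427, 363 and 406 had an unadjusted p under 0.05, against 1704 and 2419 of all 27531 genes tested. Both fits reuse libraries on which the 427 were called. With heterozygous controls only, 392 genes were called (1.42%), 196 in each direction. With all 24 libraries of this age the number was 1735 (6.3%), and DESeq2's Wald test on the 14 libraries called 2381 (8.65%).

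The direction of the calls depended on the scale. On the deposited TPM, tested with limma, 675 genes were called (2.45%), 83 higher and 592 lower, and 425 of the 427 kept their sign. Over the genes tested, the median fold change (log2) was 0.0041 on counts and -0.090 on TPM.

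Histone genes were among those with the largest increases. Hist1h2bc, which encodes a histone H2B (ENSMUSG00000018102, chr13:23684199-23692908, GRCm38, plus strand), was the gene with the largest rise among those ranked. In litter E it was at 265 and 291 CPM in DEF 3 and DEF 4 and at 42.1 and 43.1 CPM in HET 3 and HET 4. In litter H it was at 236 CPM in DEF 2, 110 CPM in HET 2 and 73.7 CPM in WT 2. In litter I it was at 186 CPM in DEF 1 and 27.2 CPM in HET 1. The groups did not overlap in any of these litters. In litter J it was at 173, 136 and 154 CPM in DEF 5 to DEF 7, 53.1 CPM in the library labelled DEF 8 and 42.2 CPM in WT 1. The rise was 2.12 ± 0.27 on the log2 scale (SE; edgeR adjusted p = 0.0060), with 2.21 without the library labelled DEF 8 and 2.07 among the libraries with a high Lars2 share, where it was not called (adjusted p = 0.545).

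The histone H2A gene Hist3h2a rose by 1.71 ± 0.24, the histone H4 gene Hist1h4i by 1.38 ± 0.27 and the H2A.X gene H2afx, whose product is phosphorylated at DNA breaks, by 1.34 ± 0.18 (log2, SE). H2afx went from 17.7 to 39.0 CPM in controls (median 22.9) to 38.6 to 94.3 CPM in deficient libraries (median 74.7), and the lowest deficient value, in DEF 1, was below WT 1 of another litter only. Hist1h2bq also rose, from 0.270 to 0.593 CPM in controls to 1.16 to 2.19 CPM in deficient libraries, which did not overlap. Of 52 histone genes tested, a set chosen after the results were seen, 8 rose and 0 fell, where 0.966% of all genes tested rose. The 33 genes of the canonical clusters had a median log2 fold change of 1.14, against 0.0041 over all genes tested. Hist1h2be rose by 1.46 on counts but was -0.18 on the TPM scale, its effect in litter J was 0.09, and it was 0.73 among the libraries with a high Lars2 share. The H2B genes of this cluster are near-identical copies, so the split of reads among Hist1h2bc, Hist1h2be, Hist1h2bf, Hist1h2bg and Hist1h2bq is uncertain.

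Other genes with large increases have roles in signalling and metabolism. Ddit4, an inhibitor of the growth kinase complex mTORC1, was at 0.857 to 6.72 CPM in controls (median 1.98) and at 3.26 to 13.8 CPM in deficient libraries (median 9.39). It rose by 1.64 ± 0.37, with 2.61 in litter H and 0.44 in litter J. Ckb, the brain-type creatine kinase, rose by 1.49 ± 0.32, the small GTPase Rhob by 1.48 ± 0.29 and the collagen chaperone Serpinh1 by 1.32 ± 0.28. The nuclease Ankle1 rose by 1.41 ± 0.27 and Ccdc85c by 1.34 ± 0.26. Tcl1, a coactivator of the kinase AKT that is expressed in pluripotent cells, rose by 1.41 ± 0.34. Among libraries with a high Lars2 share the log2 values were 0.91 for Ddit4, 0.97 for Rhob, 0.77 for Serpinh1 and 0.85 for Ankle1, each more than 1.5 times smaller than over all 14 libraries.

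The genes with the largest decreases were expressed at a few CPM. Kcnn4, a calcium-activated potassium channel (ENSMUSG00000054342, chr7:24370263-24386690, GRCm38, plus strand), was at 8.95 and 7.44 CPM in the controls of litter E and at 1.90 and 3.64 CPM in the deficient libraries. In litter I it was at 28.9 CPM in HET 1 and 12.6 CPM in DEF 1. In litter H it was at 4.11 and 5.92 CPM in the controls and 1.64 CPM in DEF 2, and in litter J at 6.72 CPM in WT 1 and 1.54 to 2.65 CPM in the deficient libraries. The groups were apart in all 4 litters. Kcnn4 fell by 1.52 ± 0.20 on the log2 scale (edgeR adjusted p = 0.0060), and by 1.52 among the libraries with a high Lars2 share.

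The muscle myosin chaperone Unc45b fell by 2.01 ± 0.35 on the log2 scale, from 2.82 to 12.5 CPM in controls (median 8.16) to 0.329 to 4.48 CPM in deficient libraries (median 1.97). Its effect was -3.48 in litter H and between -1.47 and -1.94 in the others. The liver glycogen synthase Gys2 fell by 1.96 ± 0.44, the hexokinase family gene Hkdc1 by 1.73 ± 0.33, the sialidase Neu2 by 1.82 ± 0.39 and the urea cycle enzyme Cps1 by 1.59 ± 0.25. Cyp19a1, the aromatase that makes oestrogen, fell by 1.64 ± 0.39. Also lower were the glucose transporter family gene Slc5a4b, the metalloprotease Mep1a and Ifi207, a member of the interferon-inducible p200 family with close paralogs, by 1.59, 1.52 and 1.64. For 10 of the 12 genes with the largest falls the effect in litter H was the most negative of the 4 litters, and H has 1 deficient library.

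Cd22 and Blk, a receptor and a kinase best known from B cells, fell by 1.83 ± 0.38 and 1.66 ± 0.33. Fcer1g, the gamma chain of Fc receptors, fell by 1.27 ± 0.26 and Postn, a matrix protein of interstitial cells, by 1.16 ± 0.24. They were called among 12 macrophage and leukocyte markers and 13 interstitial and peritubular markers, of which no other member passed. Of the macrophage list 7 members had a positive effect and 5 a negative one, with a median log2 fold change of 0.13, which was -0.38, -0.79, -0.16 and 0.71 in litters E, H, I and J. The macrophage markers summed to 19.97 to 55.6 CPM in deficient libraries and to 30.6 to 69.3 CPM in controls (exact permutation p = 0.0111 within litters, adjusted p = 0.0556 over 10 library measures). The interstitial markers summed to 74.5 to 223 CPM and 111 to 191 CPM (exact permutation p = 0.0944, adjusted p = 0.236). The part of these sums in the lower genes was not tested.

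**Figure D2:**
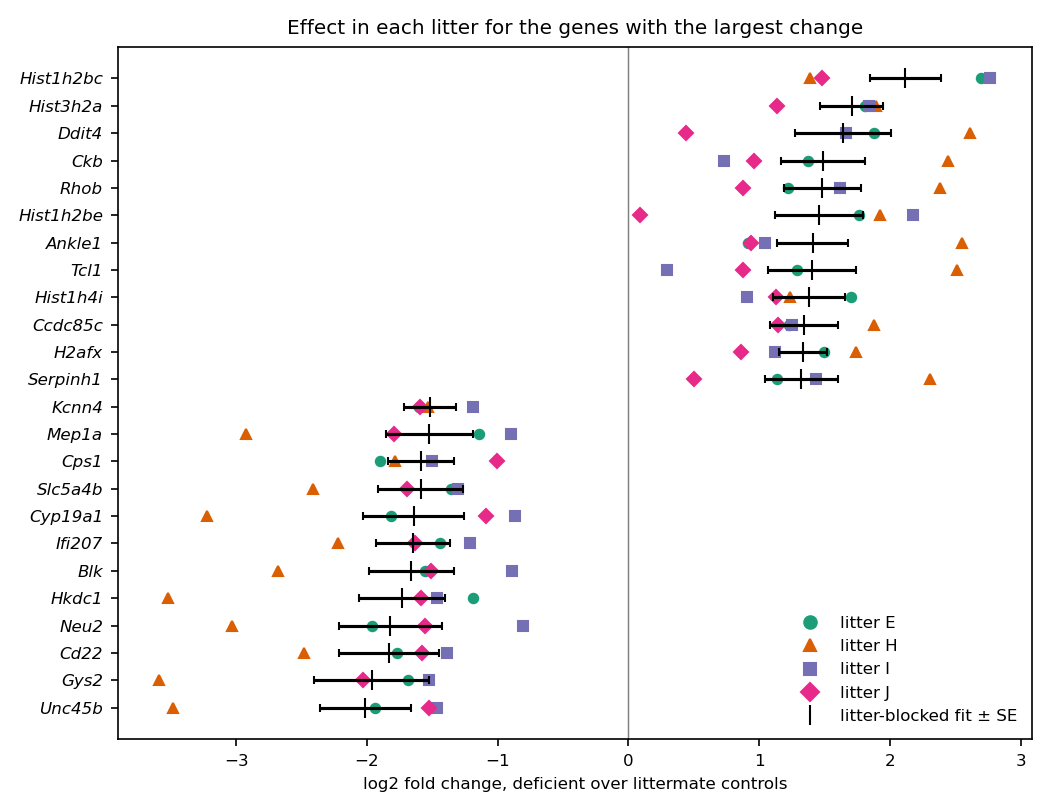
The x axis gives the log2 fold change of deficient libraries over littermate controls for the 12 genes with the largest rise and the 12 with the largest fall; coloured symbols are the 4 litters and black bars the litter-blocked fit with its SE. The genes were chosen for the same sign in all 4 litters, and the size of the effect varied between litters: Ddit4 was at 2.61 in litter H and 0.44 in litter J, and Hist1h2be at 0.09 in litter J.

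Core promoters are where TFIID binds, and 4 of them are shown to set the letters searched in their context. The windows run from 250 bases before to 50 bases after the transcription start (RefSeq, GRCm38.p6), 5′ to 3′ on the strand of the gene. Capitals mark GGGCGG (a GC box), CCAAT and TATAAA on either strand, so that ATTGG is CCAAT on the other strand. Shown are the first genes in rank on each side for which the table holds a promoter, Ddit4 and Ckb among the rises and Unc45b and Cd22 among the falls.
Ddit4, chr10:59951721-59952020, minus strand: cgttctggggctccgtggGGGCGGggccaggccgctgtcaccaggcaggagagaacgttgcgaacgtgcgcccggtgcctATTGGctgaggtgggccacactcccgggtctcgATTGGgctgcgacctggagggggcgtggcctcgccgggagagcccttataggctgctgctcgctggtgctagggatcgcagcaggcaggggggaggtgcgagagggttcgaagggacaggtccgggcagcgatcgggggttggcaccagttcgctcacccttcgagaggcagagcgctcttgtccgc
Ckb, chr12:111672289-111672588, minus strand: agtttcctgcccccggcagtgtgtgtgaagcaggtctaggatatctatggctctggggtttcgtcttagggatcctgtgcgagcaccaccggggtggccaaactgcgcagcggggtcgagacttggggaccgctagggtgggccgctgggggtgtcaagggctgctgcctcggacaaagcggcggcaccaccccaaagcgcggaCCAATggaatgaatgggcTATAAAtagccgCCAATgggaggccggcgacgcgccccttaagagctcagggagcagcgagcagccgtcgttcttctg
Unc45b, chr11:82911003-82911302, plus strand: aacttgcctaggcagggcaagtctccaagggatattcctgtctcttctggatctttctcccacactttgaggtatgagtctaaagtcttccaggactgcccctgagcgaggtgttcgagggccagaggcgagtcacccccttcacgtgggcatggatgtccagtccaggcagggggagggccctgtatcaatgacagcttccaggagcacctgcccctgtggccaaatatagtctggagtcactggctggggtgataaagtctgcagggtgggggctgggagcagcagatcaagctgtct
Cd22, chr7:30878979-30879278, minus strand: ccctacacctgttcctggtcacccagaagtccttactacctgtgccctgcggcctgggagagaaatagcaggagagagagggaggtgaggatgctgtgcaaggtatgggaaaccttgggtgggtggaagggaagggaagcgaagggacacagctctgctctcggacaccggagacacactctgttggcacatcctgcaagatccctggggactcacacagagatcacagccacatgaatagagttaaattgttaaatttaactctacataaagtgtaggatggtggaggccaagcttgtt

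Of the 216 genes called higher that have a promoter in the table, 79.2% hold GGGCGG, against 40.4% of 104 called lower and 54.1% of all 16282 tested. The 3 sets differ in level. The median log2 CPM was 5.46 for genes called higher, 2.58 for genes called lower and 1.80 for all genes tested. Among tested genes with an average log2 CPM of at least 4, the share with GGGCGG was 72.6% of 6739 genes that have a promoter. A gene was counted when any of its promoters held the letters. The letters TATAAA were found for 12.04% of the genes called higher, 20.2% of those called lower and 12.1% of all, and CCAAT for 39.4%, 36.5% and 42.1%. Among the genes with an average log2 CPM of at least 4 these shares were 7.73% and 44.0%. A match to these letters is a description of the window and not of a bound factor.

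The 4 litters gave the same direction for nearly every called gene. Of the 427, 425 had the same sign in all 4 litters, against 30.7% of all genes tested. In 347 of them the deficient libraries lay beyond every littermate control in all 4 litters, against 6.29% of all genes. These counts describe calls made on the same litters. The median effect of the genes called higher was 0.70 in litter E, 0.87 in H, 0.63 in I and 0.48 in J, and that of the genes called lower was -0.94, -1.43, -0.83 and -0.92. Across all genes the effects were weakly related. Pearson's r between pairs of litters, which share no library, was 0.43 for E and H, 0.29 for H and J, 0.23 for H and I, 0.21 for E and I, 0.20 for I and J and 0.14 for E and J. Genes are not independent replicates. The SD of the effects over all genes was 0.60 in E, 1.00 in H, 0.76 in I and 0.67 in J.

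No gene passed the test of whether the effect differs between the 4 litters (0 of 27531 by edgeR; 1101 genes, 4% of those tested, had an unadjusted p under 0.05). DESeq2's likelihood ratio test called 10. The edgeR test has 6 residual degrees of freedom, and the lone libraries of litters H, I and J are assumed to vary like the others. On simulated counts with a log2 effect of 2 in litter J only, it called 40 of 200 changed genes (20%). The absence of calls therefore does not show that the litters have the same effect.

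When a litter is left out, the calls come from the other 3 litters, with which it shares no library. Without litter J, 540 genes were called (306 higher and 234 lower, 1.96% of those tested). In litter J, whose libraries were all on the high side of the Lars2 split, 486 of them (90%) had the same sign, against 64.3% of all genes, with median effects of 0.31 and -0.64. Without litter I, 52 genes were called (0.189%), and 50 of them (96.2%) had the same sign in litter I, against 60.7% of all genes. Without litter H, 2 genes were called (0.00726%), both of the same sign in H, against 68.7% of all genes. Without litter E, edgeR called 0 genes (3706 at an unadjusted p under 0.05) and DESeq2 338. The 200 genes with the smallest p in each direction were a set added after seeing the data. They had the same sign in 92.3% of cases in litter E, 96.5% in H, 88.3% in I and 90.5% in J. Over all genes these shares were 68.9%, 68.7%, 60.7% and 64.3%.

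**Figure D3:**
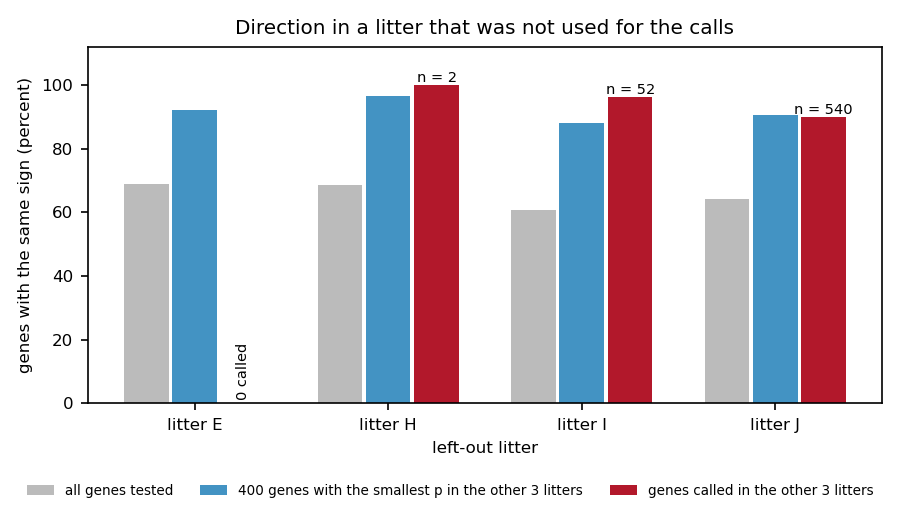
Bars give the percent of genes whose effect in the left-out litter had the sign of the fit in the other 3 litters: grey for all genes tested, blue for the 400 genes with the smallest p, red for the genes called, with their number. Called genes had the same sign in 90% of cases in litter J and 96.2% in litter I, and no gene was called without litter E.

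Genes of pluripotency, of Nodal signalling and of mitosis had mostly positive effects, with few of them called. Nodal is a secreted signal that keeps pluripotency genes on in fetal germ cells, and Lefty1 is its feedback inhibitor. Of 28 pluripotency genes, 1 rose (Tcl1), 0 fell and 26 had a positive effect, with a median of 0.54 against 0.0041 over all genes. Of 20 Nodal pathway genes, 2 rose and 0 fell: Lefty1 by 1.71 ± 0.41 (edgeR adjusted p = 0.0499) and the signal transducer Smad4 by 0.53 ± 0.12. Of 37 mitotic genes, 2 rose and 0 fell, with 35 positive and a median of 0.41: the checkpoint kinase Bub1 by 0.52 ± 0.10 and the spindle kinase Aurka by 0.46 ± 0.09. Over all genes tested 0.966% rose. Without the library labelled DEF 8 the number that rose was 12 for pluripotency, 6 for Nodal signalling and 19 for mitosis, again with 0 lower, in a fit that called 10.3% of all genes. Among the libraries with a high Lars2 share 0 were called. There 6, 2 and 7 had an unadjusted p under 0.05, as did 1704 of all 27531 genes tested. The list medians there were 0.32, 0.34 and 0.35. The levels of the genes of these lists differed among deficient libraries of the same litter.

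Tcl1 was at 68.5 CPM in DEF 3 and 25.3 CPM in DEF 4, both of litter E, whose controls were at 16.9 and 17.1 CPM. In litter J it was at 82.0, 126 and 137 CPM in DEF 5 to DEF 7, 35.2 CPM in the library labelled DEF 8 and 45.8 CPM in WT 1. In litter H it was at 199 CPM in DEF 2 and at 48.7 and 25.0 CPM in HET 2 and WT 2, and in litter I at 15.7 CPM in DEF 1 and 12.8 CPM in HET 1. By ratio to their littermate controls, DEF 2, DEF 3 and DEF 5 to DEF 7 were higher than DEF 1 and DEF 4, and the library labelled DEF 8 was below its control. Lefty1 was also highest in DEF 6 and DEF 7 in litter J, with 10.9, 32.3, 25.6 and 10.1 CPM in DEF 5 to DEF 8 and 7.02 CPM in WT 1. In litter I, DEF 1 was at 2.99 CPM and HET 1 at 3.07 CPM, so Lefty1 was higher in 3 of the 4 litters.

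The same libraries stood out over the lists. The mean log2 CPM over the pluripotency list was 5.03 in DEF 2, 4.31, 4.84 and 4.94 in DEF 5 to DEF 7, and 3.93 in the library labelled DEF 8. It was 4.08 in DEF 3 and 3.36 in DEF 4, a difference of 0.72 between littermates of 1 genotype. The controls ranged from 3.11 in HET 3 to 4.10 in WT 1, and the difference of DEF 1 from HET 1 was 0.030. Over the mitotic list the deficient libraries ranged from 5.42 in DEF 1 to 6.36 in DEF 2 and the controls from 5.29 in HET 1 to 5.78 in WT 1. Litter J, the litter with a wildtype control, 4 deficient libraries and no Lars2 split, had a median effect of 0.33 over the pluripotency list, 0.41 over the Nodal list and 0.28 over the mitotic list. Litter I had -0.0075, -0.031 and 0.11.

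**Figure D4:**
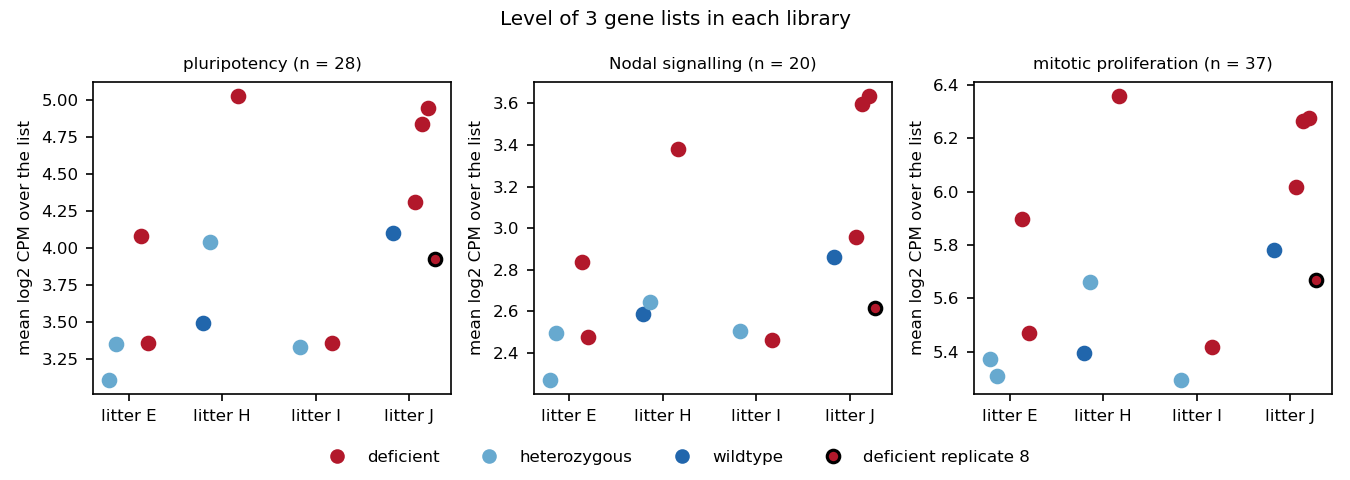
Each point is a library; the y axes give the mean log2 CPM over the tested genes of the pluripotency, Nodal signalling and mitotic lists, by litter and genotype. DEF 2, DEF 3 and DEF 5 to DEF 7 were above every littermate control in all 3 lists, while DEF 1 differed from HET 1 by 0.030, -0.042 and 0.12.

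Germ cell and stem cell regulators had no called member apart from Ddit4. Nanos2, the RNA-binding protein that keeps male germ cells out of meiosis, was at 1.19 ± 0.29 on the log2 scale (edgeR adjusted p = 0.0515), with 1.78 in litter E and 0.53 in litter J. Nanos3 was at 1.06 (adjusted p = 0.0728) and Dppa3 at 1.32 (adjusted p = 0.0734). None of the 27 germ cell identity genes was called by edgeR. Of these genes, 10 had an unadjusted p under 0.05 (8 higher and 2 lower), against 21.9% of all genes tested. Without the library labelled DEF 8, 9 of the 27 were called, 7 higher and 2 lower, in a fit that called 10.3% of all genes. Nanos2 was then at 1.26 (edgeR adjusted p = 0.011). Of the 30 genes of stem cell function and the response to GDNF, Ddit4 rose and 0 fell, where 0.966% of all genes rose. In the fit without that library 7 of these 30 were called higher and 1 lower. The GDNF-responsive factor Lhx1 was at 1.71 ± 0.45 (adjusted p = 0.0651) and the stem cell marker Id4 at 1.03 (adjusted p = 0.0709).

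Chromatin genes included several calls. Of 48 histone modifiers, 4 rose and 0 fell, where 0.966% of all genes rose: the H3K4 methyltransferases Kmt2d (0.94 ± 0.17) and Kmt2c (0.51 ± 0.11), the H3K27 demethylase Kdm6b (0.73 ± 0.17) and the corepressor Trim28 (0.39 ± 0.09). Kmt2d was at 38.6 to 117 CPM in controls and 116 to 196 CPM in deficient libraries, and its log2 fold change was 0.46 among libraries with a high Lars2 share, where that of Kmt2c was 0.27. The median of the list was 0.16 over all 14 libraries, 0.00030 in litter J and 0.0064 among the libraries with a high Lars2 share. Without the library labelled DEF 8, 6 modifiers were called higher and 2 lower, as were 3 and 2 of the DNA methylation genes. That fit called 10.3% of all genes tested. Of 15 DNA methylation genes, Mbd3, a subunit of the NuRD repressor complex, rose by 0.51 ± 0.10. Tet1, which oxidises methylated cytosine, was at 1.43 ± 0.36 (edgeR adjusted p = 0.0556), and ranged from 21.4 CPM in DEF 1 to 176 CPM in DEF 2. Of 16 subunits of TFIID and related complexes, Taf12 rose by 0.67 ± 0.12, with effects of 0.54 to 0.83 in the 4 litters and 0.70 among libraries with a high Lars2 share.

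Among stress genes, 1 of 23 p53 targets and apoptosis genes was called, the death receptor Fas, which fell by 1.13 ± 0.23. The proapoptotic gene Pmaip1 was at 1.53 ± 0.38 (edgeR adjusted p = 0.0545). In the integrated stress response list Ddit4 was the only call among 22 genes, and asparagine synthetase Asns was at -0.43 (adjusted p = 0.0651). The mRNA-decay factor Zfp36 rose by 0.92 ± 0.18 as the only call among 20 immediate early and heat shock genes. Without the library labelled DEF 8 the calls numbered 7 among the p53 targets (5 higher and 2 lower), 3 in the integrated stress response (2 and 1) and 5 among the immediate early genes, all higher. The fit without that library called 10.3% of all genes tested, and the main fit 1.55%.

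No member was called by edgeR in the lists for the piRNA pathway (25 genes, 9 at an unadjusted p under 0.05), arrest and G1 control (25, 9), meiosis (33, 6), glycolysis (25, 7) or the mitochondrial genome (13, 1). The same holds for the markers of Sertoli (15, 3), Leydig (10, 0), endothelial (10, 2) and red blood cells (8, 1). Over all genes 21.9% had an unadjusted p under 0.05. Without the library labelled DEF 8, 8 piRNA genes (3 higher and 5 lower), 5 of arrest and G1 control, 4 of meiosis, 3 of glycolysis and 3 of the mitochondrial genome were called, with 2 Sertoli and 2 endothelial markers and no Leydig or red blood cell marker. That fit called 10.3% of all genes tested. The piRNA list had the lowest median of the functional lists, -0.14, and the cohesin gene Stag3 of the meiosis list was at -0.57 (adjusted p = 0.0643).

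**Figure D5:**
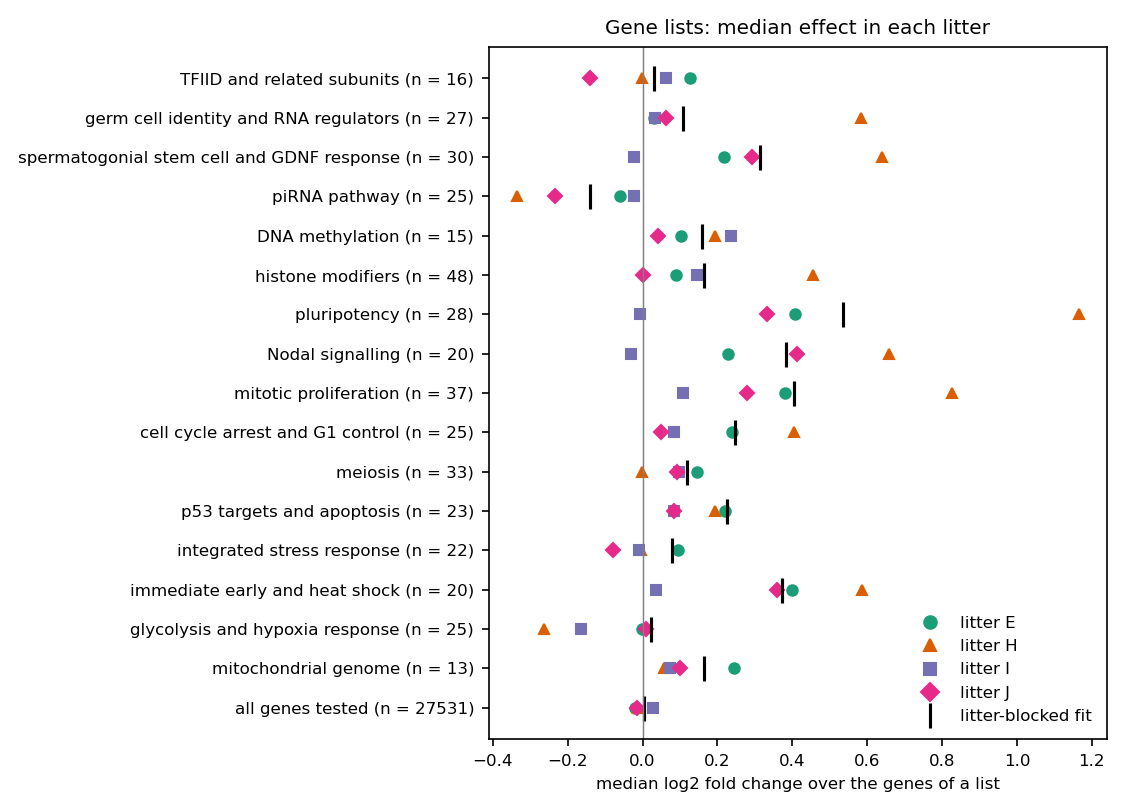
The x axis gives the median log2 fold change over the tested genes of each list (n in the label), with coloured symbols for the 4 litters and a black bar for the litter-blocked fit. Litter H had the highest median for pluripotency (1.17) and mitosis (0.83), and the median over all genes tested was near 0 in each litter.

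Genes close to Taf4b were checked because the deficient embryos carry 2 copies of the mutated chromosome segment. Within 20 Mb, 5 of 184 tested genes were called (2.72%), against 8 of 389 on the rest of chromosome 18 (2.06%) and 405 of 22057 on other chromosomes (1.84%), over genes with a position in the authors' deposited table. In these regions 1, 3 and 260 genes were called higher and 4, 5 and 145 lower. The litter, entered first, accounted for a median of 35.1% of the variance of a gene's log2 CPM, and deficiency within litters for 8.67%. Deficiency alone accounted for 11.7%. Litter, with 4 levels, takes more degrees of freedom than deficiency, so these shares cannot be compared directly.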

How the data were processed

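RNA-seq libraries of sorted prospermatogonia were analysed from embryonic day 16.5; the other age was not used here. Gene counts were made by the authors with featureCounts (Subread 1.6.2), and TPM with StringTie 1.3.3b, after Trim Galore 0.5.0 and HISAT2 2.1.0 on GRCm38, per the submitters' processing notes. Gene positions come from the authors' deposited DESeq2 table; its log2 fold changes and adjusted p-values, which the authors computed with DESeq2 and deposited, are not reported here. Members, lists and tests were chosen with earlier results of these data known.

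Counts were tested with edgeR 4.0.16 (R 4.3.3; TMM scaling, filterByExpr, litter as block, Benjamini-Hochberg), which kept 27531 of 55536 genes and left 9 residual degrees of freedom. The steps were tested on simulated data. Effects per litter are differences of mean log2 CPM with a prior count of 2. The total counts set the precision of low genes, and intervals cover the spread between libraries only. Named genes are Taf4b, up to 12 genes each way with the largest change among those called, with an average log2 CPM of at least 1 and the same sign in all 4 litters, and up to 4 members per list with the smallest p. Histone genes and Lars2 were added after the results were seen. Alternatives used DESeq2 1.42.0, limma 3.58.1 on log2(TPM + 1), other filters, blocks and controls, and fits without single libraries or litters. Fits on the Lars2 split were added after seeing the data. Same-numbered DEF and HET libraries share a litter. The replicate number was tried as a block, with the same-numbered WT 1 and WT 2 included.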

Additional observations from a re-analysis of the deposited data

Results flagged for a closer look

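A value far from the others was looked for in 82 groups, each the deficient or the littermate control libraries for 1 measure. Chance would flag about 1 in 20 independent groups, but these groups mix 4 litters and the measures share libraries. Such a value was found in 7 groups. Of these, 3 concern the library labelled DEF 8, which was apart from the other 7 deficient libraries in Taf4b (132.8 CPM against 49.8 to 68.2), in Hist1h2bc (53.1 CPM against 136 to 291) and in the share of counts in mitochondrial genes (2.21% against 3.25% to 3.54%). Another 3 concern litter I. Red blood cell markers summed to 4659 CPM in DEF 1, against 48.4 to 1185 in the other deficient libraries, and to 3998 CPM in HET 1, against 85.3 to 481 in the other controls. The interstitial and peritubular markers summed to 223 CPM in DEF 1, against 74.5 to 130. The last is Kcnn4, at 12.6 CPM in DEF 1 against 1.54 to 3.64 in the other deficient libraries, while its littermate HET 1 had 28.9 CPM.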

How the results depend on the processing

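The sign of the 427 called genes was the same under every alternative on counts, over the 421 of them that were tested with the mean-count and genotype-only filters and all 427 in the other fits. On TPM it was the same for 425, where Hist1h2be was at -0.18. The alternatives reuse libraries on which these genes were called. Their number was not stable. It was within 1.5 times of 427 with DESeq2 size factors (426), the mean-count filter (465), the genotype-only filter (462), heterozygous controls only (392) and without litter J (540). It was 2381 with DESeq2's Wald test, 2061 with no filter, 678 with limma-voom, 675 with limma on TPM, 1735 with all 24 libraries, 138 with collection date as block and 102 with no litter block. It was 0 with wildtype controls only (edgeR; 3045 at an unadjusted p under 0.05), 0, 2 and 52 without litters E, H and I, 144 with a log2 change of at least 1, and 1 and 3 in the 2 Lars2 fits. Without each of the 14 libraries in turn it ranged from 6 to 2823, and each of them moved it by over 1.5 times. With the replicate number as a block, 1 gene was called (2967 at an unadjusted p under 0.05). That fit held DEF 1 to DEF 4, HET 1 to HET 4, WT 1 and WT 2. Its blocks were not all litters, because WT 1 of litter J shared a block with DEF 1 and HET 1 of litter I. The 4 pairs of DEF and HET libraries with the same number share a litter. The correlation of deviations within these pairs was 0.43, 0.47, 0.0018 and 0.25.

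The litter difference was called for 10 genes by DESeq2's likelihood ratio test. The share of same signs in litter I was 79.4% with DESeq2 and 80.6% without DEF 8, and in litter J 86.2% and 93.3%. The Taf4b difference was -1.47 among libraries with a high Lars2 share, where the exact permutation test has few arrangements (p = 0.0667). List medians among those libraries were -0.0053 for germ cell identity, 0.052 for DNA methylation, 0.0064 for histone modifiers, 0.090 for p53 targets and 0.016 for the integrated stress response. With the Lars2 share as covariate they were 0.090 for DNA methylation, 0.038 for histone modifiers, 0.090 for p53 targets and -0.0099 for the integrated stress response. With no litter block the medians were -0.70 for Leydig markers and -0.27 for macrophage markers, against -0.033 and 0.13 with it. Causes were not tested. Litters I and J have 1 control each, so the number of libraries limits the precision of their effects.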

Other observations

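Other RNAs that moved with the groups were Gm26917 and Malat1, both annotated as long noncoding RNAs and named after the results were seen. The origin of the reads counted for Gm26917 was not tested. Gm26917 took 0.231% to 0.409% of the counts in controls and 0.503% to 0.642% in deficient libraries, which did not overlap, and rose by 0.89 ± 0.14 on the log2 scale (edgeR adjusted p = 0.0105). Malat1 took 0.0354% to 0.0484% and 0.0491% to 0.0719%, again without overlap, and rose by 0.63 ± 0.10. Among the libraries with a high Lars2 share, Gm26917 and Malat1 were at 0.62 and 0.67. The 100 most abundant genes took 16.0% to 19.97% of the counts in controls and 19.1% to 20.6% in deficient libraries (exact permutation p = 0.00556 within litters, adjusted p = 0.0556).

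The genes with the smallest p-values, ahead of the histone genes, were Cirbp, a cold-inducible RNA-binding protein, and Cib1, a calcium- and integrin-binding protein. Cirbp rose by 0.91 ± 0.11, with effects of 0.68 to 1.18 in the 4 litters, and Cib1 by 0.95 ± 0.12, with 0.65 to 1.17. Both were chosen for their p-values and lay beyond the littermate controls in all 4 litters.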
